A study of Mus musculus with 11 samples.

Results

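The 7 genes described here encode cytoskeletal intermediate filament proteins of epithelial and of mesenchymal cells. They are the keratin genes Krt7, Krt8, Krt18 and Krt19, and the genes for vimentin (Vim), desmin (Des) and nestin (Nes). They were taken by name from a table of 13985 genes, which lists all 7, and all 7 passed the filter on low values. The table covers 11 libraries of cells from adult C57BL/6 mouse kidneys that the labels call primary fibroblasts. In all, 3 libraries came from control kidneys, 4 from kidneys taken 3 days after unilateral ureteral obstruction (UUO, the surgical closing of a ureter, used as a model of kidney fibrosis) and 4 from kidneys taken 7 days after it. All groups share the strain, the digestion of the tissue and the enrichment in serum-containing DMEM, and the labels name no transgene or drug. Values are FPKM, fragments scaled to the length of the gene and the mapped total, given as mean ± SD with the n of the group above.

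Intermediate filaments are flexible protein cables that give cells mechanical strength. Keratins form them in epithelia as obligate pairs of a type I chain (here Krt18 and Krt19) and a type II chain (here Krt7 and Krt8). Vimentin and desmin are type III proteins of mesenchymal and of muscle cells, and nestin is a type VI protein known from progenitor cells and, in the kidney, from podocytes. Simple epithelia of the collecting duct carry the keratins of this set, while vimentin is found in stromal, endothelial and blood-derived cells and is known to appear in tubule cells after injury.

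The members lie on 5 chromosomes of the GRCm38 build used by the deposited table. The type II keratin genes are Krt8 (ENSMUSG00000049382.9, chr15:101996711-102004342, minus strand) and Krt7 (ENSMUSG00000023039.16, chr15:101411043-101430313, plus strand). Krt18 (ENSMUSG00000023043.6, chr15:102028216-102032026, plus strand) is a type I gene that lies 23873 bases from its usual partner Krt8, and both genes are read away from that gap. The other type I gene is Krt19 (ENSMUSG00000020911.14, chr11:100140810-100148665, minus strand). The remaining members are Vim (ENSMUSG00000026728.9, chr2:13573927-13582826, plus strand), Des (ENSMUSG00000026208.9, chr1:75360329-75368579, plus strand) and Nes (ENSMUSG00000004891.16, chr3:87971078-87980451, plus strand). Promoter sequences from RefSeq (GRCm38.p6) matched 6 of the 7 members, all but Krt19. The letters TATAA, searched on the transcribed strand from 40 bases before to 20 bases after the RefSeq start, stood in 3 of these 6 promoters and in 5.09% of all 32851 promoters of the table. The 3 stretches are shown because they hold the paired genes Krt8 and Krt18 beside Vim, with the TATAA in capitals. It begins 1 base before the start in Krt8, 19 bases before it in Krt18 and 32 bases before it in Vim. A match is a description of the sequence only.
Krt8 (chr15:102004324-102004353, minus strand): cctcttctttTATAAagggccttcgctggg
Krt18 (chr15:102028187-102028216, plus strand): cccgcggcgaTATAAcaacaggtcgaggac
Vim (chr2:13574269-13574298, plus strand): ctaacagtgtTATAAaagcagcgcccttgg

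The libraries of the groups differed in more than these genes. The 13 protein genes of the mitochondrial genome held 25.4% to 35.9% of the summed FPKM in control, 6.06% to 7.29% at day 3 and 4.27% to 7.94% at day 7. The 6 fibroblast markers summed to 37.0 to 44.5 FPKM in the control libraries, against 11370 to 14016 FPKM for the 8 proximal tubule markers, so the label was not matched by the marker levels there. At day 3 the fibroblast markers summed to 299 to 672 FPKM, below the proximal tubule markers (837 to 1556 FPKM) in every library. At day 7 the fibroblast markers summed to 1056 to 2634 FPKM, above the proximal tubule markers (477 to 610 FPKM). The 7 macrophage markers exceeded the fibroblast markers in every UUO library, with 2528 to 4258 FPKM at day 3 and 3107 to 3480 FPKM at day 7. Single genes made up much of these sums. Kap averaged 894 of the 1241 FPKM of the proximal tubule sum at day 3. Col1a1 averaged 295 of the 486 FPKM of the fibroblast sum at day 3 and 1236 of 2150 at day 7. Lyz2 averaged 1610 of the 3359 FPKM of the macrophage sum at day 7. The order of the sums rests in part on these genes. These are bulk samples, in which fewer cells of a type and less RNA per cell cannot be told apart. The depth per library is unknown because the tables hold no counts.

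At day 3 the collecting duct and simple epithelial keratin Krt8 and the ductal keratin Krt19 rose together with vimentin, and at day 7 Krt19 and vimentin were still raised, desmin was called higher and Krt7 lower. Vimentin moved most, to 6.43 times its control mean at day 3 and 7.91 times at day 7. Krt19 followed, with 3.83 and 4.98 times the control mean. Krt18 and nestin passed the test at neither time.

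**Figure D1:**
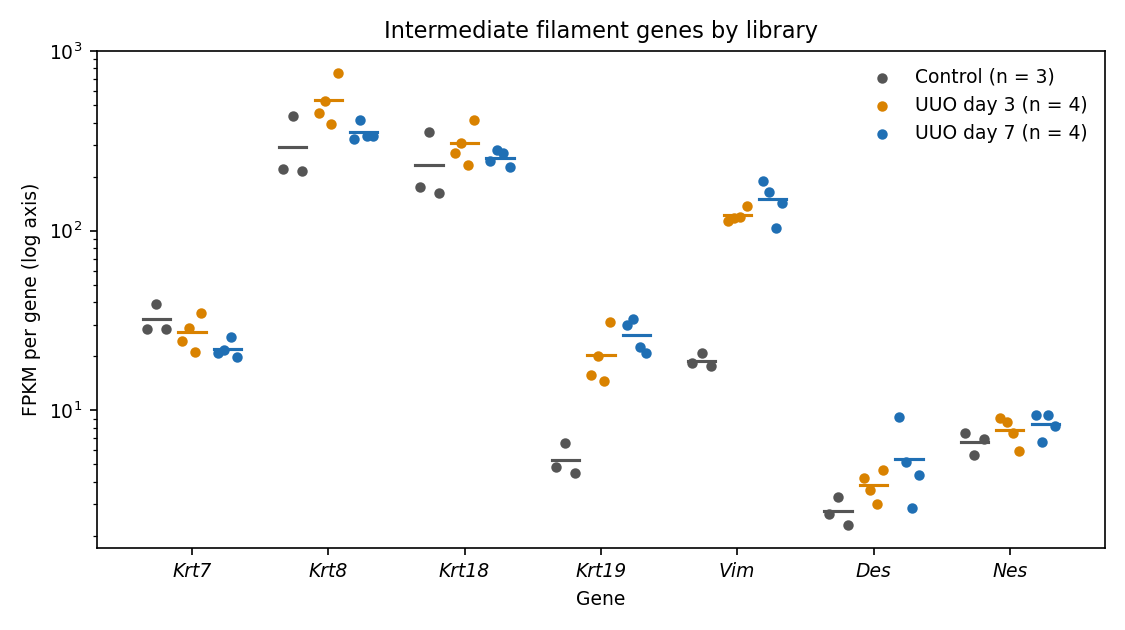
FPKM of the 7 members in each of the 11 libraries (points) with the group mean (bars), for control (n = 3), day 3 (n = 4) and day 7 (n = 4). The Vim and Krt19 points of both UUO groups lie above every control point, whereas the points of Krt18 and Nes overlap between control and both UUO groups.

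Krt8, the type II chain of the basic simple epithelial pair, stood at 221, 435 and 216 FPKM in control replicates 1 to 3. It was at 455, 528, 393 and 751 FPKM in day 3 replicates 1 to 4, and at 325, 416, 336 and 335 FPKM in day 7 replicates 1 to 4. Control replicate 2 lay within the day 3 range and above every day 7 library, and the other controls lay below every UUO library. The group means were 291 ± 125, 532 ± 156 and 353 ± 42.1 FPKM. On the log2(FPKM + 1) scale Krt8 rose by 0.90 at day 3 (SE 0.26, 95% interval 0.35 to 1.46, limma adjusted p = 0.00764). The difference at day 7 was 0.35 (95% interval −0.20 to 0.91, limma adjusted p = 0.236). The call at day 3 was lost when each library was centred on its median (limma adjusted p = 0.0701), and without control replicate 2 the difference at day 7 was called (limma adjusted p = 0.0156).

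Krt18, the type I partner of Krt8, measured 174, 356 and 163 FPKM in control. It measured 272, 309, 231 and 412 FPKM at day 3 and 245, 282, 270 and 226 FPKM at day 7. Control replicate 2 again exceeded all UUO libraries but day 3 replicate 4, and the other control libraries were below all of them. The means were 231 ± 108, 306 ± 77.3 and 256 ± 25.1 FPKM, with log2 differences of 0.47 at day 3 (95% interval −0.09 to 1.02, limma adjusted p = 0.127) and 0.23 at day 7 (limma adjusted p = 0.427). Without control replicate 2 both differences were called (limma adjusted p = 0.00333 at day 3 and 0.0183 at day 7), so the result for Krt18 depends on this library. It also depends on the scaling, as both differences were called after rescaling to TPM. With TPM taken without the mitochondrial genome, the day 3 difference was 0.45 and not called (limma adjusted p = 0.0902). The day 7 value turned to −0.07 under median centring.

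Control replicate 2 had the highest value of its group for 6 members, all but nestin, and day 3 replicate 4 likewise. Both libraries also held the highest summed FPKM of the 9 general epithelial markers in their groups, 1416 in control replicate 2 against 790 and 819 in the others, and 1094 in day 3 replicate 4 against 594 to 839. Control replicate 2 had in addition the lowest mitochondrial share of the controls. The part of these differences in the keratin values was not tested.

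Krt19, a type I keratin of ducts that lacks most of the usual tail domain, was at 4.83, 6.61 and 4.49 FPKM in control. At day 3 it was at 15.7, 20.1, 14.5 and 30.9 FPKM, and at day 7 at 30.1, 32.1, 22.7 and 20.8 FPKM. All 8 UUO libraries lay above all controls, and the libraries of day 3 and day 7 overlapped. The means of 5.31 ± 1.14, 20.3 ± 7.48 and 26.4 ± 5.49 FPKM corresponded to log2 rises of 1.71 at day 3 (SE 0.24, limma adjusted p = 4.93e-05) and 2.11 at day 7 (SE 0.24, limma adjusted p = 6.68e-06). These differences exceeded those of 94.0% and 95.4% of all tested genes.

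Krt7, a type II keratin of ducts and urothelium, did not rise. It measured 28.5, 39.3 and 28.5 FPKM in control, 24.3, 28.7, 21.1 and 34.9 FPKM at day 3, and 20.9, 21.6, 25.7 and 19.8 FPKM at day 7. Of the day 3 libraries, replicates 2 and 4 lay within the control range and replicates 1 and 3 below it, and all day 7 libraries lay below it. The log2 difference was −0.23 at day 3 (limma adjusted p = 0.255) and −0.51 at day 7 (SE 0.17, 95% interval −0.89 to −0.14, limma adjusted p = 0.0188). The fall at day 7 was lost without control replicate 2 (limma adjusted p = 0.0928) and after rescaling to TPM (limma adjusted p = 0.782), a scaling that also turned the day 3 difference to 0.18.

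Vimentin, the type III protein of mesenchymal cells, had 18.5, 20.8 and 17.6 FPKM in control. It had 113, 117, 119 and 138 FPKM at day 3 and 188, 165, 103 and 143 FPKM at day 7. Every UUO library held several times the level of any control library, and replicate 3 was the lowest of day 7. The means were 18.9 ± 1.63, 122 ± 10.8 and 150 ± 36.1 FPKM, with log2 rises of 2.62 at day 3 (SE 0.17, 95% interval 2.24 to 3.00, limma adjusted p = 1.6e-07) and 2.89 at day 7 (SE 0.17, limma adjusted p = 4.79e-08). These exceeded the differences of 98.6% and 98.2% of all tested genes. The 7 macrophage markers summed to 214 to 338 FPKM in control, 2528 to 4258 FPKM at day 3 and 3107 to 3480 FPKM at day 7, and its part in the vimentin values was not tested.

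Desmin, the type III protein of muscle and of mesangial and smooth muscle cells in the kidney, was a low gene here. It stood at 2.65, 3.29 and 2.30 FPKM in control, 4.19, 3.58, 3.03 and 4.65 FPKM at day 3, and 9.20, 5.14, 2.85 and 4.39 FPKM at day 7. Day 7 replicate 3 lay within the control range and replicate 1 far above the other libraries, so the groups overlapped. The log2 differences were 0.37 at day 3 (limma adjusted p = 0.221) and 0.69 at day 7 (SE 0.26, 95% interval 0.13 to 1.25, limma adjusted p = 0.0301). The day 7 call was lost under 7 of 22 alternatives, among them the fits without control replicate 1 (limma adjusted p = 0.0725), control replicate 3 (0.0993), day 7 replicate 1 (0.062) and day 7 replicate 2 (0.0522). The 9 pericyte and smooth muscle markers were also highest in day 7 replicate 1 and lowest in day 7 replicate 3 (440 and 160 FPKM summed), and their part in the desmin values was not tested.

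Nestin, the large type VI protein, measured 7.47, 5.63 and 6.97 FPKM in control, 9.10, 8.58, 7.46 and 5.92 FPKM at day 3, and 9.39, 6.63, 9.44 and 8.23 FPKM at day 7. The ranges of the groups overlapped. The means were 6.69 ± 0.953, 7.76 ± 1.41 and 8.42 ± 1.32 FPKM. The log2 differences of 0.18 at day 3 (limma adjusted p = 0.335) and 0.29 at day 7 (limma adjusted p = 0.123) did not pass, and under median centring they were −0.15 and −0.01.

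Counted together, 3 of the 7 members rose at day 3 (Krt8, Krt19 and Vim), none fell and 4 were not called. Over all 13428 tested genes 44.4% rose and 21% fell in that comparison, so the number of members that rose is near the background. At day 7, 3 rose (Krt19, Vim and Des), 1 fell (Krt7) and 3 were not called, beside 46.3% of all genes that rose and 23.5% that fell, again near the background. The median log2 difference of the members was 0.47 at day 3 and 0.35 at day 7, and that of all tested genes 0.26 and 0.28. Between day 7 and day 3 limma called 0 members, with 1 at an unadjusted p under 0.05 (Krt8, −0.55, unadjusted p = 0.0369, adjusted p = 0.139), while 7.37% of all genes were called higher and 8.37% lower. Without day 7 replicate 3, Vim was called between the days (limma adjusted p = 0.0392). Krt19 and Vim kept their direction and their call at both times in all 22 alternative fits.

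**Figure D2:**
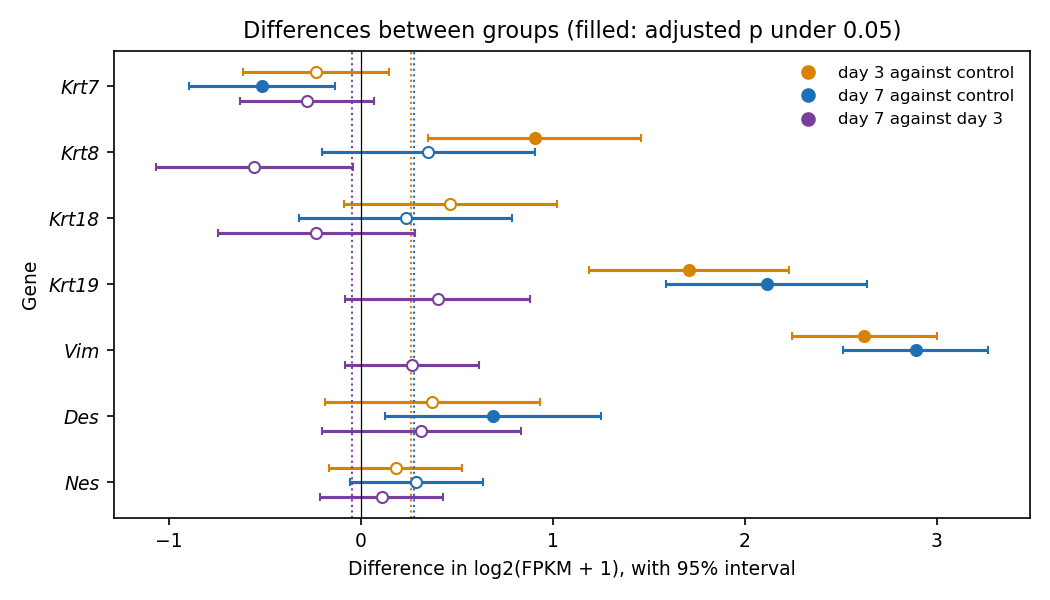
Log2 difference of each member (points) with its 95% interval (bars) for day 3 against control, day 7 against control and day 7 against day 3, from limma on log2(FPKM + 1). Filled points have an adjusted p under 0.05 and dotted vertical lines mark the median of all tested genes. Vim at 2.62 and 2.89 and Krt19 at 1.71 and 2.11 lie farthest from these medians.

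The order of the levels differed between the groups. FPKM is scaled to length, here close to the union of all annotated exons of a gene and not the length of its expressed transcript. In a reference annotation this union spans 7049 bases for Krt7, 4743 for Vim and 1437 for Krt18. The order below holds for this measure only, and summed transcripts gave another. In control the order of the mean FPKM was Krt8, Krt18, Krt7, Vim, Nes, Krt19 and Des, where the neighbours Krt8 and Krt18, and Nes and Krt19, overlapped between libraries. At day 3 it was Krt8, Krt18, Vim, Krt7, Krt19, Nes and Des, with overlaps between Krt8 and Krt18 and between Krt7 and Krt19. At day 7 Krt19 stood before Krt7, and the ranges of these neighbours overlapped, as did those of Nes and Des.

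The level of vimentin relative to the keratins depended on the table. The gene table gives Vim at 44.6% to 46.2% of the sum of its transcripts in the transcript table, a nearly constant share, whereas Krt8 and Krt18 were equal in both tables. With transcripts summed, the mean of Vim was 42.2 ± 3.56 FPKM for control, 265 ± 24.6 for day 3 and 330 ± 83.1 for day 7. On that measure Vim stood above Krt7 in control, without overlap, and between Krt8 and Krt18 at day 7, with ranges that overlapped both. Krt19 then stood above Krt7 already at day 3, with overlapping ranges, and at day 7 without overlap. The log2 rise of Vim was 2.62 and 2.90 from the summed transcripts. Of the 3 listed Vim transcripts, Vim-201 held 89.0% of the sum in control, 96.5% at day 3 and 94.4% at day 7. The short form Vim-206 was at 24.0 FPKM in day 7 replicate 1 and at 2.88 to 3.39 FPKM in the other day 7 libraries. Krt7 was at 141% to 189% of its summed transcripts and Krt19 at 85.0% to 113%, so the levels of these members are less certain than those of Krt8 and Krt18. For Krt7, Krt8 and Des, an annotated gene on the opposite strand overlaps the locus (Gm671, Gm36026 and Gm15179), and the strand setting of the counting is not given in the sources.

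The balance among the keratins differed between the groups. The 4 keratins summed to 559 ± 240 FPKM in control libraries, 885 ± 247 in those of day 3 and 657 ± 66.4 in those of day 7. Krt19 made up 2.40% ± 0.50 of the type I sum in control, 6.12% ± 0.646 at day 3 and 9.34% ± 1.48 at day 7, while Krt7 made up 10.4% ± 1.87, 4.95% ± 0.337 and 5.92% ± 0.92 of the type II sum. The type I sum was 0.722 ± 0.0406 of the type II sum in control, 0.587 ± 0.0165 at day 3 and 0.754 ± 0.0568 at day 7. These shares are given without a test.

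Ratios of members within a library do not depend on how that library was scaled. Krt18 stood at 0.786, 0.819 and 0.754 of the Krt8 level in control, at 0.598, 0.586, 0.588 and 0.548 at day 3 and at 0.755, 0.678, 0.802 and 0.673 at day 7. All day 3 libraries were below all others, and day 7 overlapped control. The mean log2 ratio at day 3 differed from that of control by −0.44 (two-sided exact permutation p = 0.0571, the smallest that 3 against 4 libraries allow). The difference between day 7 and day 3 was 0.32 (exact permutation p = 0.0286, the smallest that 4 against 4 allow), and that between day 7 and control −0.12 (exact permutation p = 0.286). Krt19 relative to Krt7 was 0.157 to 0.170 in control, 0.644 to 0.885 at day 3 and 0.881 to 1.48 at day 7. Both UUO groups lay wholly above control, by 2.13 and 2.85 on the log2 scale (exact permutation p = 0.0571 each), and the days overlapped (0.71, exact permutation p = 0.0571). With transcripts summed, this ratio was higher in every day 7 library than in any day 3 library.

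Relative to vimentin, the 4 members set against it stood lower in every UUO library than in any control library. Vim rose most of all members, so these lower ratios in part restate its rise and are no separate result. Krt8 stood at 12.0, 20.9 and 12.3 times the Vim level of the gene table in control, at 4.01, 4.50, 3.31 and 5.46 times at day 3, and at 1.72, 2.52, 3.25 and 2.34 times at day 7. The 3 groups did not overlap, with mean log2 ratios of 3.86, 2.09 and 1.26. The step between the days was −0.82 (exact permutation p = 0.0286). The log2 ratio of Krt19 to Vim differed from control by −0.79 at day 3 and −0.64 at day 7, that of Des to Vim by −2.20 and −2.09, and that of Nes to Vim by −2.48 and −2.63, without overlap (exact permutation p = 0.0571 each). Between the days these 3 ratios overlapped (exact permutation p from 0.543 to 0.657). Of all 18 exact tests of ratios, 13 reached the smallest p of their design, and none passed after Benjamini-Hochberg adjustment over the 18 (smallest adjusted p = 0.0735).

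**Figure D3:**
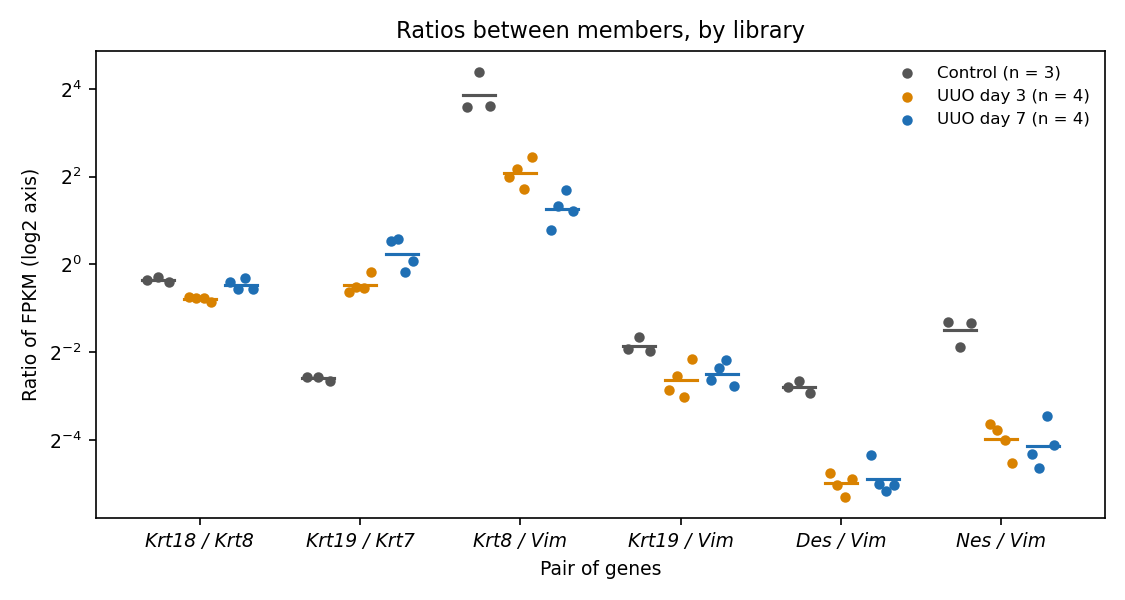
Ratio of the FPKM of 6 pairs of members in each library (points, log2 axis) with the mean taken on the log2 scale (bars), for control (n = 3), day 3 (n = 4) and day 7 (n = 4). The Krt18 to Krt8 ratio is lowest at day 3, at 0.548 to 0.598, and the Krt8 to Vim ratio steps down from 12.0 to 20.9 in control to 3.31 to 5.46 at day 3 and 1.72 to 3.25 at day 7.

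The table holds 9 other keratins. At day 3, 3 of them rose, 1 fell and 5 were not called, with a median log2 difference of 0.12 beside 0.26 for all genes. At day 7, 5 rose, 2 fell and 2 were not called, with a median of 0.83 beside 0.28. Over all tested genes 44.4% rose and 21% fell at day 3 and 46.3% and 23.5% at day 7, so these counts are near the background. Under median centring the counts were 2 up and 2 down at day 3, with a median of −0.21, and 4 up and 2 down at day 7.

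Krt20, the keratin of urothelial umbrella cells and gut epithelium, rose from 0.918 ± 0.356 FPKM to 6.60 ± 2.44 at day 3 (log2 difference 1.94, limma adjusted p = 2.36e-05) and 13.1 ± 2.78 at day 7 (2.87, limma adjusted p = 7e-07). Krt14, a type I keratin of basal cells, rose from 0.643 ± 0.268 FPKM to 1.84 ± 0.273 at day 3 (0.80) and 6.45 ± 2.78 at day 7 (2.11). Its day 3 call was lost under median centring and quantile normalization (limma adjusted p = 0.122 and 0.103). Krt5, the type II partner of Krt14 in basal cells, rose at day 7 (3.98 ± 4.14 to 8.10 ± 3.49 FPKM, log2 difference 1.09, limma adjusted p = 0.0336). Among the controls Krt5 was high in replicate 1 alone, at 8.77 FPKM against 1.61 and 1.57 FPKM. Its call was lost under 7 alternatives, among them the fits without control replicate 2 or 3 (limma adjusted p = 0.155 each), day 7 replicate 1 (0.0781) and day 7 replicate 2 (0.0858), and without control replicate 1 it was called at day 3 as well (0.0394). Krt15, a basal type I keratin, rose at day 7 (1.78 ± 0.442 to 4.58 ± 1.75 FPKM, 0.96) and not at day 3 (0.18, limma adjusted p = 0.454). Krt17, induced in injured stratified epithelium, rose from 0.0605 ± 0.0149 FPKM to 0.632 ± 0.162 and 0.897 ± 0.241 (0.62 and 0.83). It passed the filter of 0.5 FPKM only through its UUO libraries, which favours a call of a rise. Krt10, a keratin of differentiated epidermis, fell from 3.42 ± 0.809 FPKM to 1.48 ± 0.234 and 1.53 ± 0.0733 (−0.82 and −0.79). The 7 urothelial markers summed to 9.14 to 16.04 FPKM in control, 10.8 to 18.7 at day 3 and 23.7 to 42.0 at day 7. Krt5, Krt15 and Krt20 are themselves in this sum and make up most of it at day 7. Of the uroplakins, Upk1a had means of 2.30, 1.11 and 1.49 FPKM in control, day 3 and day 7, and Upk3a 2.15, 0.185 and 0.817. Upk2 had 0.409, 0.245 and 0.567 FPKM, and Upk1b 0.905, 0.560 and 3.89. The part of urothelial cells in the keratin values was not tested.

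Of 13 other intermediate filament genes, 6 were tested, and 5 of these rose at both times with none falling. Among all tested genes 44.4% rose at day 3 and 46.3% at day 7. Lmnb1 had the largest difference of the 5 at both times. This B-type lamin went from 6.43 ± 0.521 FPKM to 51.6 ± 5.81 at day 3 (log2 difference 2.82, limma adjusted p = 1.59e-08) and 41.5 ± 5.40 at day 7 (2.51). Lmna, the gene of the A-type lamins, went from 41.4 ± 14.1 FPKM to 116 ± 39.4 (1.46) and 82.8 ± 11.6 (1.02). Lmnb2 rose by 0.94 and 0.57, its day 7 call being lost under median centring and quantile normalization (limma adjusted p = 0.104 and 0.134). The neuronal filament genes Nefm and Prph also rose from low levels, Nefm from 0.741 ± 0.335 to 1.23 ± 0.173 and 1.89 ± 0.434 FPKM and Prph, for peripherin, from 0.202 ± 0.0863 to 0.564 ± 0.0972 and 0.842 ± 0.115 FPKM. At day 3 both of these calls were lost under median centring (limma adjusted p = 0.839 and 0.662), and that of Nefm also without control replicate 2 (0.237), day 3 replicate 2 (0.103), day 3 replicate 3 (0.0698) or day 3 replicate 4 (0.089). Prph passed the filter of 0.5 FPKM only through its UUO libraries, which favours a call of a rise. Under median centring 3 of the list were up and 1 down at day 3, and 4 up and 1 down at day 7.

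Genes of filament anchors and partners did not move in one direction against control. Of 17 tested of 19, 7 rose, 3 fell and 7 were not called at day 3, and 7 rose, 4 fell and 6 were not called at day 7. These counts are near the background, as 44.4% of all tested genes rose and 21% fell at day 3. At day 7 the shares were 46.3% and 23.5%. The medians were 0.23 and −0.18, beside 0.26 and 0.28 for all genes. Under median centring 3 rose and 5 fell at day 3 and 3 rose and 9 fell at day 7. From day 3 to day 7, 0 of the 17 rose, 7 fell and 10 were not called. Of all tested genes 7.37% rose and 8.37% fell in that comparison. The median was −0.35 beside −0.04 for all genes, and under median centring 0 rose and 5 fell. Plec, for plectin, which links filaments to adhesion sites, rose from 7.71 ± 0.378 FPKM to 28.2 ± 7.32 (1.71) and 17.4 ± 4.02 (1.05). Dsg2, a desmosomal cadherin, rose from 1.51 ± 0.394 FPKM to 5.35 ± 0.622 (1.35) and 4.48 ± 0.170 (1.14). The linker Macf1 rose by 0.56 and 0.71, with both calls lost under median centring (limma adjusted p = 0.272 and 0.0588) and the day 3 call without control replicate 2 (0.0607). Cryab, a small heat shock chaperone of desmin filaments, fell from 124 ± 42.4 FPKM to 65.2 ± 14.8 (−0.89) and 41.1 ± 3.03 (−1.52), its day 3 call being lost on rescaling to TPM (limma adjusted p = 0.0581). Pkp4, a plakophilin-related junction protein, fell from 32.1 ± 5.89 FPKM to 17.0 ± 2.14 (−0.87) and 15.2 ± 2.08 (−1.03).

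**Figure D4:**
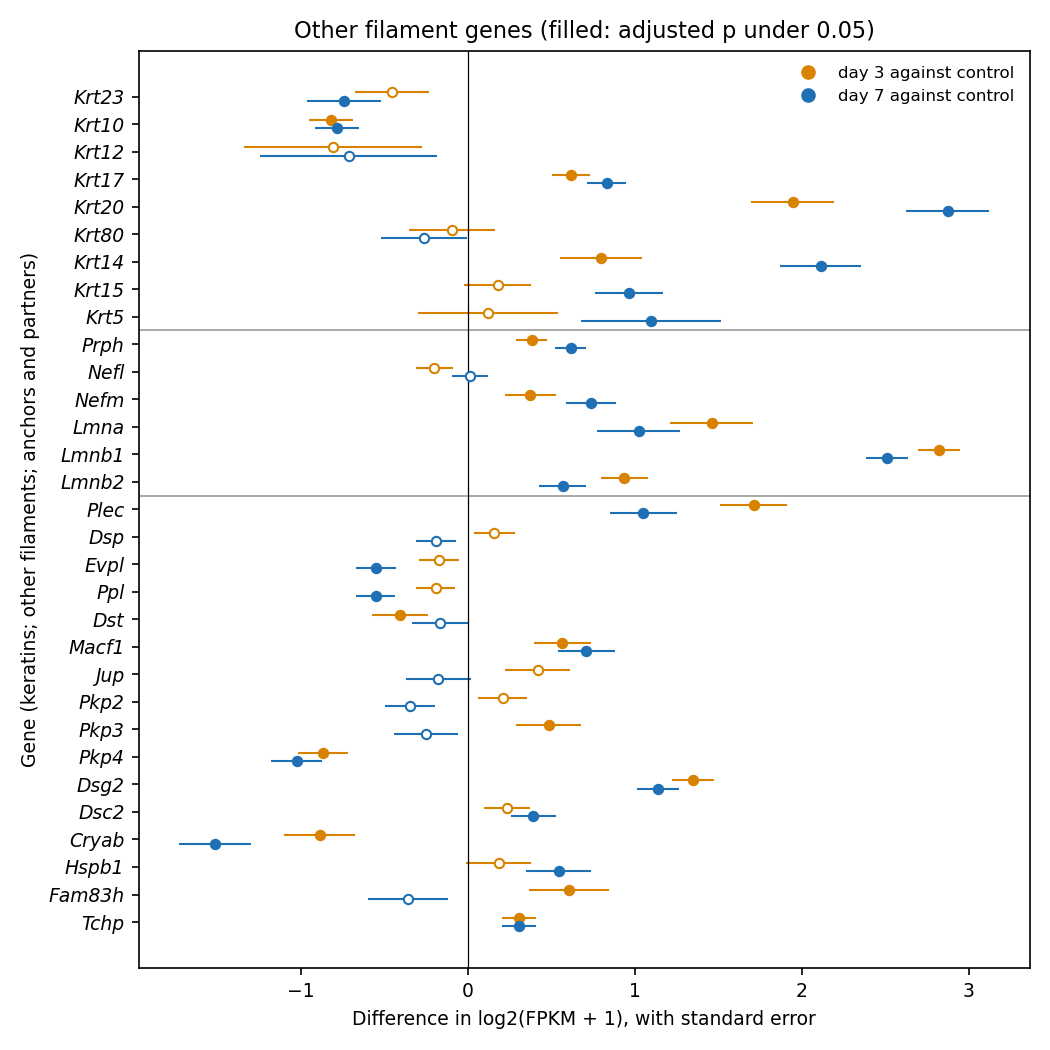
Log2 difference from control at day 3 and day 7 of the tested other keratins (top), other intermediate filament genes (middle) and reported filament anchors and partners (bottom), from limma on log2(FPKM + 1), with the standard error (bars) and filled points for an adjusted p under 0.05. Krt20 (2.87 at day 7) and Lmnb1 (2.82 at day 3) show the largest rises and Cryab (−1.52 at day 7) the largest fall.

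Markers of the cells that carry these filaments are set beside the members. For the counts of markers, the shares over all tested genes were 44.4% up and 21% down at day 3. At day 7 they were 46.3% up and 23.5% down. Of the 9 general epithelial markers, which include Epcam and Cdh1, 0 rose, 2 fell and 7 were not called at day 3, and 0 rose, 4 fell and 5 were not called at day 7. After rescaling to TPM 2 rose and none fell at day 3. They summed to 790 to 1416 FPKM in control libraries, 594 to 1094 in those of day 3 and 525 to 697 in those of day 7, the last range being below all controls. Of the 9 collecting duct markers, 0 rose and 7 fell at day 3, and 0 rose and 8 fell at day 7. Their sums were 792 to 1416 FPKM in control, 177 to 420 at day 3 and 194 to 249 at day 7. The 8 proximal tubule markers all fell at both times. Of the 5 markers of the loop of Henle and distal tubule, 4 fell at day 3 and 5 at day 7. The 6 markers of injured tubule, such as Havcr1, all rose at both times, from a sum of 554 to 711 FPKM to 3829 to 4437 and 2242 to 4035 FPKM. Of the 4 keratins of the set, Krt8 and Krt19 were called higher at day 3, and Krt7 and Krt18 were not called. The Krt8 call was lost under median centring (limma adjusted p = 0.0701). The part of epithelial cells in the keratin values was not tested.

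For the mesenchymal side, all 6 fibroblast markers and all 7 macrophage markers rose at both times. The fibroblast sum was 37.0 to 44.5 FPKM in control, 299 to 672 FPKM at day 3 and 1056 to 2634 FPKM at day 7. Between the days all 6 fibroblast markers rose further, and Vim changed by 0.27 (limma adjusted p = 0.292). Of the 9 pericyte and smooth muscle markers, 4 rose and 1 fell at day 3 and 6 rose and 0 fell at day 7, and of the 6 endothelial markers 2 rose at each time, with 2 and 1 that fell. Of the 5 podocyte markers, 4 fell at day 3 and 3 at day 7, with sums of 107 to 115 FPKM in control and 11.7 to 24.2 after obstruction, while the level of Nes, a podocyte gene in the healthy kidney, was 0.18 and 0.29 above control without passing the test. Of the urothelial markers 6 were tested, of which 1 rose and 2 fell at day 3 and 4 rose and 1 fell at day 7. The one that rose at day 3 was Krt20, and those at day 7 were Krt5, Krt15, Krt20 and Upk1b. Apart from Upk1b, these are keratins already described above and no separate sign of urothelium. Of 3 tested mesothelial markers, 0 rose and 2 fell at day 3 and 1 rose at day 7. Glial and striated muscle markers were low, with 1 tested of 5 and 0 tested of 4. The tested glial marker, S100b, went from 0.130 ± 0.0535 FPKM in control to 0.128 ± 0.0908 at day 3 and 1.64 ± 0.949 at day 7, where it was called higher (log2 difference 1.13, limma adjusted p = 0.00181). S100b passed the filter of 0.5 FPKM only through its day 7 libraries. How far each of these cell types accounts for the member values was not tested.

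**Figure D5:**
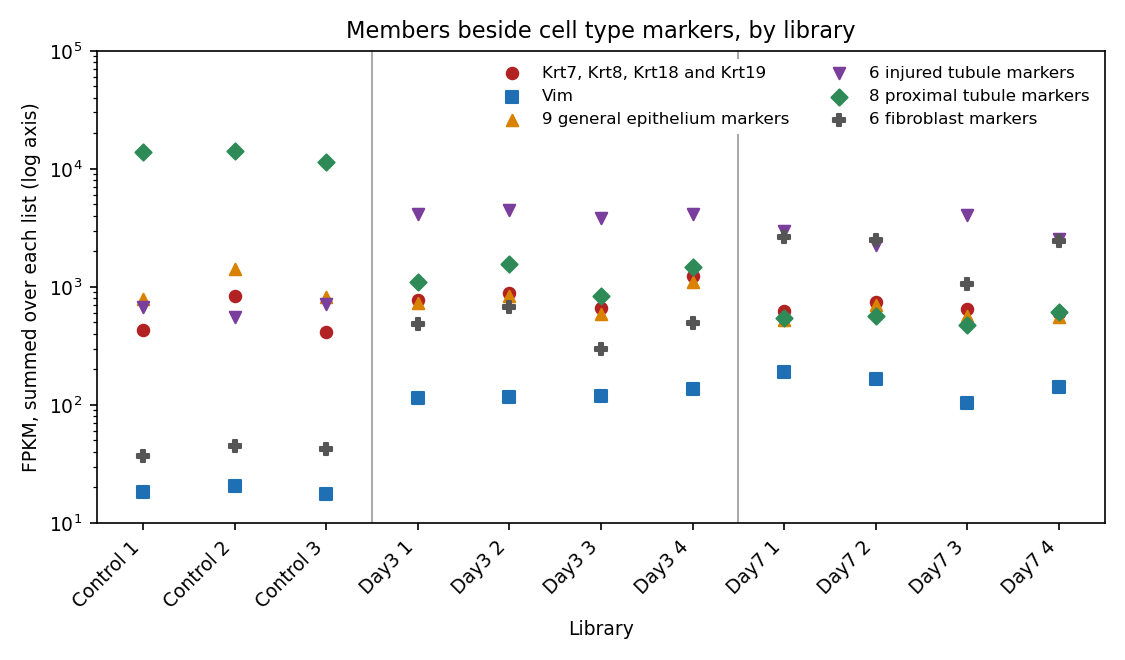
FPKM in each library (points, log axis) of the summed 4 keratins, of Vim, and of the summed markers of general epithelium, injured tubule, proximal tubule and fibroblasts, for control (n = 3), day 3 (n = 4) and day 7 (n = 4). Proximal tubule sums go from at least 11370 in control to at most 1556 after obstruction, Vim and the fibroblast sums are higher in every UUO library than in any control, and the keratin sum of control replicate 2 lies within the UUO range.

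Genes whose profile was closest to a member were ranked by the root mean square difference of centred log2(FPKM + 1) over the 11 libraries, among the 7265 genes that averaged 5 FPKM or more. Close to Krt8 were Tmem171 (0.145) and Eif6 (0.170). The closest to Krt18 was Gdf15, a stress-induced cytokine (0.133), followed by Capns1 and Rrad. Ctxn1 (0.196) and Lgals1, for galectin-1 (0.218), were nearest to Krt19, and Tmc4 (0.0966), G6pc3 and Gpaa1 to Krt7. For Vim they were Socs1 (0.210), Akr1b8 (0.211) and Cmtm3 (0.220), for Des Hspb1, a small heat shock protein (0.192), Bok and Cdc16, and for Nes Slain2 (0.0837), Hmgb1 and Anp32a. A small distance is easier to reach for members that changed little, such as Nes and Krt7. No member was among the 3 nearest genes of another.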

How the data were processed

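Trizol RNA of 3 control, 4 day 3 and 4 day 7 samples was sequenced as stranded libraries on a NovaSeq instrument, per the labels' protocols. Groups and replicate numbers come from the sample titles. Nothing states that replicates are separate animals, so p-values reflect only the scatter of these samples, which may be technical. The authors deposited FPKM values per gene (13985 genes) and per transcript (26807 transcripts), per the file headers. Cutadapt, HISAT2, StringTie and GRCm38 are named in the submitters' processing notes. The annotation release is not given in the sources used here. In 98.5% of 531 genes with several transcripts, the gene value lay within 5% of fragments over the union of the exons. Only 20.0% to 72.0% of the 100 lowest values of a library fell on whole steps of a single-read size, so reads were not recovered and depth is unknown.

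The members, lists, tests and alternatives were chosen with earlier results of these data known. Values entered as log2(FPKM + 1) for the 13428 genes that averaged 0.5 FPKM or more over all libraries (557 lay below). A gene below this level in control can pass through its UUO libraries alone, which favours a call of a rise. The model was that of limma 3.58.1 (R 4.3.3), with all 3 groups as levels and an empirical Bayes trend. Fold changes on this scale understate the change of low genes. The call threshold was 0.05 for p-values adjusted by Benjamini-Hochberg over all tested genes. The code was tested on simulated data. Ratios of members were compared with exact permutation tests (scipy 1.17.1). Named genes are the 7 members, up to 6 called genes with the largest difference from control of each of 3 related lists, and the 3 genes nearest to each member, of which 1 with a provisional symbol is left out. Values of 2 further genes that the rule names are not reported here. Tables and figures used matplotlib 3.10.9, numpy 2.4.6 and pandas 2.3.3 under Python 3.11.15.

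Alternatives were a pseudocount of 0.1, no filter, a minimum mean of 2 FPKM, TPM with and without the mitochondrial genome, median centring, quantile normalization, no trend, only the compared groups, a replicate block, summed transcripts, and leaving out each library. Deviations from group means of same-numbered control and day 7 libraries correlated at 0.166 to 0.428 across genes, each over 0.1, so these numbers may pair the samples. All values printed as results come from fits and tests without the pairing, and the replicate block is an alternative. Those of control with day 3 (−0.138 to 0.231) and day 3 with day 7 (−0.030 to 0.338) did not all exceed 0.1.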

Additional observations from a re-analysis of the deposited data

Results flagged for a closer look

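In 5 of 80 groups of 4 libraries looked at, 1 library stood apart from the other 3. Chance gives about 1 in 20. Krt8 measured 416 FPKM in day 7 replicate 2 against 325 to 336 in the others, the same value as for its only listed transcript. Vim-206 was at 24.0 FPKM in day 7 replicate 1. Lmna measured 175 FPKM in day 3 replicate 4, above the others of that group, and 65.5 FPKM in day 7 replicate 3, below the others.

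The effects of the 2 times differed by limma's test of day 7 against day 3 for 4 of the related genes named in the text. Krt20 was higher by 0.93 (adjusted p = 0.0175), which was lost without day 7 replicate 1 (adjusted p = 0.0556), Krt14 by 1.32 (adjusted p = 0.00238) and Krt15 by 0.79 (adjusted p = 0.0142). Plec stood at −0.66 (adjusted p = 0.0305), a call lost without day 3 replicate 3 (0.0548), day 3 replicate 4 (0.0835), day 7 replicate 1 (0.0942) or day 7 replicate 3 (0.0733).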

How the results depend on the processing

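Scaling moved the level of all genes. The median log2 difference of 0.26 at day 3 and 0.28 at day 7 became 0.70 and 0.77 after rescaling to TPM, and −0.07 and −0.03 under median centring. At day 3 the 5957 higher and 2816 lower genes became 8246 and 1700 under TPM, 3743 and 4701 under median centring, and 4146 and 4358 under quantile normalization. At day 7 the 6217 and 3162 became 8559 and 1967, 4251 and 4654, and 4535 and 4512. Under TPM 6 members were called at day 3. With TPM taken without the mitochondrial genome, the day 3 median was 0.31, with 5887 higher and 2853 lower genes. On that scaling 3 members were called at day 3. Reversed signs were those of Krt7 at day 3 under TPM (0.18), Nes at day 3 under median centring (−0.15) and quantile normalization (−0.12), and Krt18 (−0.069) and Nes (−0.014) at day 7 under median centring. The cause was not tested.

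Leaving out single libraries gave 1366 to 2599 genes called between the days, beside 2114 with all libraries. Members called between the days numbered 0 to 1. The difference of Nes between the days ranged from −0.0007 to 0.21, that of the Des to Vim ratio from −0.076 to 0.20 and that of the Nes to Vim ratio from −0.37 to 0.020. With the replicate block, 8880, 9512 and 2336 genes and 3, 4 and 0 members were called in the 3 comparisons, and no call of a member changed. Beyond those given beside the results, Des and Nes were called at day 3 under TPM (adjusted p = 0.0203 and 0.00897), Krt18 at day 3 under TPM and quantile normalization (0.00553 and 0.0443), Krt7 at day 3 under median centring (0.0119), and Krt8, Krt18 and Nes at day 7 under TPM (0.00773, 0.0179 and 0.0017). Nes at day 7 was also called without day 7 replicate 2 (0.0465), and Des at day 7 was also lost under median centring, quantile normalization and the fit of only both groups (0.203, 0.229 and 0.0553).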
